A study of Mus musculus with 18 samples.

Results

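The 10 genes followed here mark mesothelial cells, and their transcripts were measured in 18 RNA-seq libraries from cultured mouse peritoneal macrophages. They were taken from the table by symbol as known mesothelial markers, with earlier results of these data known: Krt7, Krt8, Krt18, Krt19, Msln, Upk3b, Upk1b, Lrrn4, Wt1 and Muc16. All 10 are among the 21831 genes of the table, and all 10 passed the filter on low counts that left 13409 genes for testing. The mice were C57BL/6 and 6 weeks old. In 1 genotype the gene for the nuclear receptor PXR carried floxed alleles, and it is called FF here. In the other PXR was deleted in myeloid cells, and it is called dMye. The labels do not name the Cre driver of that deletion. Macrophages were recruited with 1 mL of 3% thioglycollate, injected into the peritoneum 3 days ahead of collection. Cells attached to plastic for 4 h and then received 20 µM PCN, the PXR ligand pregnenolone 16α-carbonitrile, or its solvent DMSO for 12 h. This gave 3 libraries each of FF_DMSO and FF_PCN, and 6 each of dMye_DMSO and dMye_PCN. Muc16, with at most 9 counts in any FF library, passed the filter only through the dMye libraries.

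Mesothelial cells form the single layer that lines the peritoneal cavity and covers its organs. They are epithelial in form, with a cytoskeleton of simple-type keratins and a coat of membrane glycoproteins, but they arise from mesoderm and express the transcription factor WT1. Macrophages are not known for these genes.

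Library totals ran from 21993687 to 30228032 expected counts, at which 3 counts correspond to 0.0992 to 0.136 CPM (counts scaled to the library total). No replicate pair agreed within sampling noise, and none was merged. The summed level of 10 macrophage genes lay between 11900 and 17200 CPM over the libraries. Most of that sum came from Lyz2, Ctss and Cd68, and Ctss is not limited to macrophages. Other genes of the list were far lower, such as Csf1r at 131 CPM, Adgre1 at 125 CPM and Mertk at 30.1 CPM in FF_DMSO. Nr1i2, which encodes PXR, had at most 3 counts in any library, so the deletion could not be checked at this depth. The summed level of 4 Y-linked genes lay between 113 and 137 CPM in the FF libraries and between 0.463 and 1.49 CPM in the dMye libraries. Genotype and the sex of the mice therefore cannot be told apart in any comparison of FF with dMye. Nothing in the labels ties a library to its own animal or culture, and p-values therefore cover only library-to-library spread, perhaps technical.

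Krt8 and Krt18 lie next to each other on chromosome 15 of GRCm38, 23697 bases apart and on opposite strands. Krt8 runs from 101996698 to 102004482 on the minus strand and Krt18 from 102028180 to 102032027 on the plus strand. Upk3b (chromosome 5, 136038496 to 136046487, plus strand) and Lrrn4 (chromosome 2, 132868305 to 132880891, minus strand) stand on separate chromosomes. The promoters of these 4 genes are shown because Krt8 and Krt18 differed between genotypes by similar amounts, whereas Upk3b and Lrrn4 differed from each other more than any other pair under DMSO. Each window is RefSeq sequence of GRCm38.p6, 250 bases before to 50 after the annotated start, 5′ to 3′ on the gene's strand. RefSeq promoters were found for 6 of the 10 genes, these 4 with Krt7 and Muc16. Capitals mark matches, on either strand, to TATAAA, the letters of a box named after them near many start sites, or to the TEAD factor core GGAATG. The windows are chr15:102004293-102004592 (minus strand) for Krt8, chr15:102027966-102028265 (plus strand) for Krt18, chr5:136038246-136038545 (plus strand) for Upk3b and chr2:132880813-132881112 (minus strand) for Lrrn4.
Krt8: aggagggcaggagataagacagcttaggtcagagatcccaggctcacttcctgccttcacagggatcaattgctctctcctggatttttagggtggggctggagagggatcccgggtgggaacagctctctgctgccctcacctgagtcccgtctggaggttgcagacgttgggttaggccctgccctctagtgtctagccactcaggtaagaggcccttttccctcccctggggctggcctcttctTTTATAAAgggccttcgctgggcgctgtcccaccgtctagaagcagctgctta
Krt18: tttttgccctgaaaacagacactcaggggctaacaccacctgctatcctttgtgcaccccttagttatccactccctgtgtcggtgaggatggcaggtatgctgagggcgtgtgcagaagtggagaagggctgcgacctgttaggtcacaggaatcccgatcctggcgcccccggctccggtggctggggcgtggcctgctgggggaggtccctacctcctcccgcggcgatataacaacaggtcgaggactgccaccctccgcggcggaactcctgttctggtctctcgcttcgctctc
Upk3b: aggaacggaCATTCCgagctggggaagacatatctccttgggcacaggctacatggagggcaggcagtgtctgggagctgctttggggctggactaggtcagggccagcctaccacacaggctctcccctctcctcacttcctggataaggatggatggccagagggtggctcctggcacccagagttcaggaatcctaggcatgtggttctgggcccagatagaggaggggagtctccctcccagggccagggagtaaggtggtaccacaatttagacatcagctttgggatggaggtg
Lrrn4: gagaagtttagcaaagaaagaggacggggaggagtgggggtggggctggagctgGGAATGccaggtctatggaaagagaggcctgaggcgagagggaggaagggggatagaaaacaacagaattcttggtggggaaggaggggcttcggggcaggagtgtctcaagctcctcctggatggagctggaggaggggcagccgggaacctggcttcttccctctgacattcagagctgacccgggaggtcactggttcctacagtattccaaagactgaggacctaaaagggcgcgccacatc
The Krt8 window held TATAAA on both strands in overlapping positions, and the Krt18 window held none of the motifs searched. Upk3b and Lrrn4 each held 1 GGAATG. These letters are common: TATAAA was found in 13.6% and GGAATG in 14.7% of 32851 promoter windows of the same length. GGGCGG (GC box) was found in 35.7% of them and 4 times in the Krt7 window, and CCAAT in 37.4% of them and in none of the 6.

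The other 6 genes are protein-coding as well and lie as follows in GRCm38. Krt7 shares chromosome 15 with Krt8 and Krt18 (101411043 to 101430313, plus strand), and Krt19 is on chromosome 11 (100140810 to 100148665, minus strand). Msln is on chromosome 17 (25748613 to 25754378, minus strand) and Upk1b on chromosome 16 (38773184 to 38800328, minus strand). Wt1 is on chromosome 2 (105126529 to 105173616, plus strand) and Muc16 on chromosome 9 (18495455 to 18674530, minus strand).

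Mesothelial marker transcripts were several-fold higher in dMye than in FF cultures under both agents. Summed over the 10 genes, they reached 25.3 to 29.7 CPM (median 27.6) in FF_DMSO and 158 to 172 CPM (median 166) in dMye_DMSO. Under PCN the summed level was 21.5 to 24.1 CPM (median 22.8) in FF and 135 to 163 CPM (median 153) in dMye. The medians differed 6.03-fold under DMSO and 6.72-fold under PCN. Even in dMye the 10 genes made up only 0.0135 to 0.0172% of all counts. In bulk RNA, more cells of a type and more RNA per cell cannot be told apart.

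Each gene was compared between genotypes with edgeR's quasi-likelihood test, with p-values adjusted by Benjamini-Hochberg over all 13409 genes and called below 0.05. All 10 genes were higher in dMye under DMSO, where 13.9% of all tested genes were higher and 7.85% lower. All 10 were also higher under PCN, where the shares over all tested genes were 16.2% higher and 11.4% lower. The libraries of the genotypes did not overlap for any of the 10 under either agent, which held for 17.3% of tested genes in this direction under DMSO and 19.1% under PCN. The median log2 fold change over the 10 genes was 2.63 under DMSO and 2.73 under PCN, against 0.02 and 0 over all tested genes. These counts and medians include Muc16, which passed the filter on low counts only through the libraries where it is high. Its call as higher in dMye is therefore no support of its own. The comparisons under DMSO and under PCN share no libraries.

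**Figure D1:**
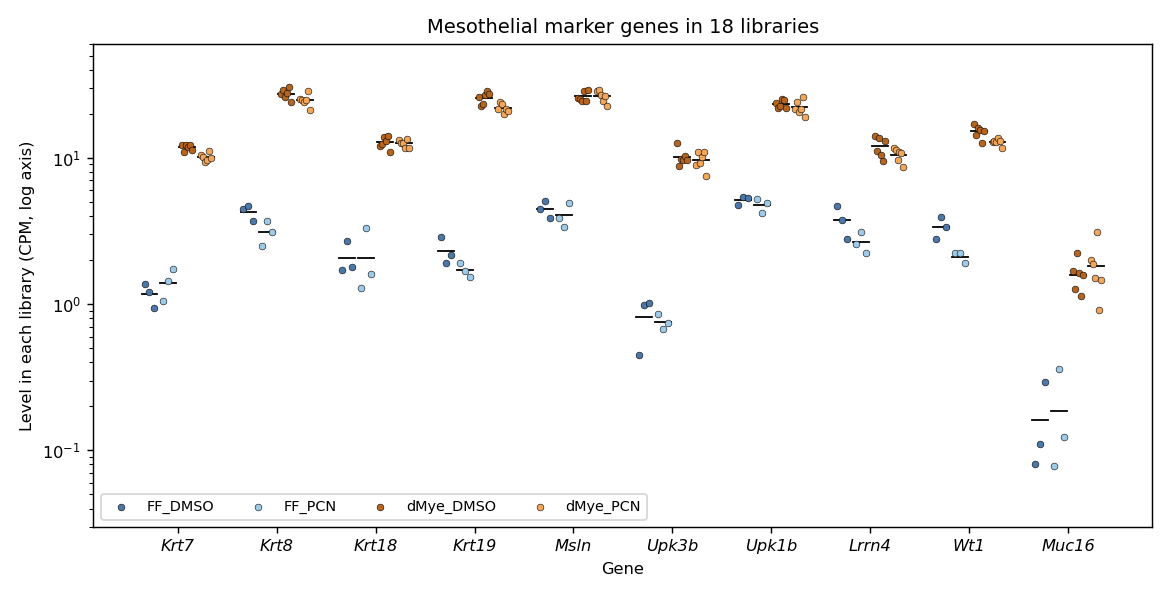
Level of each mesothelial marker gene in each of the 18 libraries, in CPM on a log axis. Points are libraries, short lines are group means, and colours are the 4 groups. For every gene all 12 dMye libraries lie above all 6 FF libraries.

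Keratins are the intermediate filament proteins of epithelial cells, built as pairs of a type I and a type II chain. Krt8, a type II chain, was at 4.49, 4.66 and 3.67 CPM in the FF_DMSO libraries and at 24.1 to 30.4 CPM (median 27.4) in dMye_DMSO. Its level was thus 6.31-fold higher in dMye (log2 2.66, SE 0.13, adjusted p = 4e-13). Krt18, the type I partner of Krt8, was at 1.7, 2.68 and 1.78 CPM in FF_DMSO and at 11 to 14.1 CPM (median 12.7) in dMye_DMSO, a 6.08-fold difference (log2 2.6, SE 0.2, adjusted p = 2e-09). Under PCN Krt8 was at 2.49, 3.69 and 3.1 CPM in FF and at 21.3 to 28.6 CPM (median 24.8) in dMye, 7.76-fold apart. Krt18 was at 1.28, 3.33 and 1.61 CPM in FF_PCN, where FF_PCN 2 stood above the others, and at 11.6 to 13.4 CPM (median 12.6) in dMye_PCN, 5.82-fold apart.

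Krt19, the smallest type I keratin, showed a larger difference. It was at 2.87, 1.91 and 2.18 CPM in FF_DMSO and at 22.5 to 28.7 CPM (median 26.4) in dMye_DMSO, an 11-fold difference (log2 3.45, SE 0.13, adjusted p = 1.2e-14). Under PCN the 3 FF libraries were at 1.9, 1.67 and 1.53 CPM and the dMye libraries at 19.8 to 24.2 CPM (median 21.6), 12.4-fold apart. Krt7, a type II keratin of simple epithelia, was at 1.37, 1.21 and 0.945 CPM in FF_DMSO and at 10.9 to 12.3 CPM (median 12.1) in dMye_DMSO, 9.88-fold apart (log2 3.31, SE 0.15, adjusted p = 9.4e-14). Its difference under PCN was 6.99-fold, with FF libraries at 1.05, 1.43 and 1.73 CPM and dMye libraries at 9.4 to 11.2 CPM (median 10.1). Counts of Krt7 were not whole in 18 of 18 libraries and those of Krt19 in 17 (tolerance 0.01), so part of their reads was divided by estimate. Krt7 also overlaps the antisense gene Gm671, and Krt8 overlaps Gm36026 on the opposite strand. No source used here says whether counting used strand.

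The table lists 54 keratin genes, of which 21 were at 0 in all libraries and 8 were tested. Of the 4 tested keratins outside the marker set, 1 was higher in dMye under DMSO and 3 under PCN. Krt14, a keratin of basal epithelial cells, was at 1.34 ± 0.55 CPM in FF_DMSO and 11.4 ± 1.36 CPM in dMye_DMSO (SD), a log2 difference of 3.07 (SE 0.21, adjusted p = 1.6e-10). Krt80 also passed under PCN, at log2 0.79. Krt23 passed under PCN too, but its mean was 0.013 CPM in FF_PCN, below the floor of 3 counts, and 0.391 CPM in dMye_PCN, so no fold is given. These keratins were singled out after their values were seen.

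Among the surface proteins, Msln encodes mesothelin, a glycoprotein anchored to the mesothelial membrane. It was at 4.45, 5.06 and 3.89 CPM in FF_DMSO and at 24.4 to 29 CPM (median 25.5) in dMye_DMSO, 5.77-fold apart (log2 2.53, SE 0.12, adjusted p = 2.2e-13). Under PCN it was at 3.85, 3.37 and 4.91 CPM in FF and at 22.6 to 28.9 CPM (median 26.6) in dMye, 6.29-fold apart. Muc16 encodes the large mucin known as CA125, which binds mesothelin. It was the scarcest of the 10, with 2, 3 and 8 counts in the FF_DMSO libraries and 25 to 68 counts (median 40) in dMye_DMSO, 9.37-fold apart with a 95% interval of 4.68 to 18.8 (adjusted p = 2.8e-05). Under PCN it had 2, 9 and 3 counts in FF and 24 to 73 (median 45) in dMye, 9.17-fold apart. In FF, 4 of the 6 libraries had 3 or fewer Muc16 counts. Without FF_DMSO 3 its log2 difference under DMSO rose from 3.23 to 3.94, and without FF_PCN 2 that under PCN rose from 3.2 to 4.06.

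Uroplakins are membrane proteins that stiffen the bladder surface, and 2 of them are also made by mesothelium. Upk3b was at 0.445, 0.99 and 1.02 CPM in FF_DMSO and at 8.82 to 12.6 CPM (median 9.69) in dMye_DMSO, 11.9-fold apart (log2 3.58, SE 0.2, adjusted p = 8e-12). Under PCN it was at 0.855, 0.674 and 0.743 CPM in FF and at 7.53 to 11 CPM (median 9.62) in dMye, 12.2-fold apart. Upk1b, a tetraspanin, was at 4.73, 5.43 and 5.35 CPM in FF_DMSO and at 21.8 to 25.4 CPM (median 23.2) in dMye_DMSO, 4.44-fold apart (log2 2.15, SE 0.11, adjusted p = 1.8e-12). Under PCN it was at 5.21, 4.2 and 4.91 CPM in FF and at 19.1 to 26.1 CPM (median 21.6) in dMye, 4.49-fold apart. Of the other uroplakin genes of the bladder, Upk2 and Upk3a were at 0 in all 18 libraries. Upk1a had 60 counts in all, with group means of 0.0915 to 0.156 CPM, near the floor, and was not tested.

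Lrrn4, which encodes a leucine-rich repeat membrane protein, showed the smallest difference. It was at 4.65, 3.78 and 2.8 CPM in FF_DMSO and at 9.46 to 14.1 CPM (median 12.1) in dMye_DMSO, 3.15-fold apart (log2 1.66, SE 0.16, adjusted p = 3.9e-08). Wt1, the zinc-finger transcription factor of mesothelium and kidney, was at 2.79, 3.92 and 3.38 CPM in FF_DMSO and at 12.7 to 16.9 CPM (median 15.4) in dMye_DMSO, 4.4-fold apart (log2 2.14, SE 0.11, adjusted p = 2e-12). Under PCN Lrrn4 was at 2.57, 3.13 and 2.23 CPM in FF and at 8.69 to 11.6 CPM (median 10.8) in dMye, 3.82-fold apart. Wt1 was at 11.6 to 13.7 CPM (median 13) in dMye_PCN, 5.87-fold above FF_PCN. The antisense gene Wt1os starts 18 bases from Wt1, and Wt1 counts were not whole in 17 libraries.

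**Figure D2:**
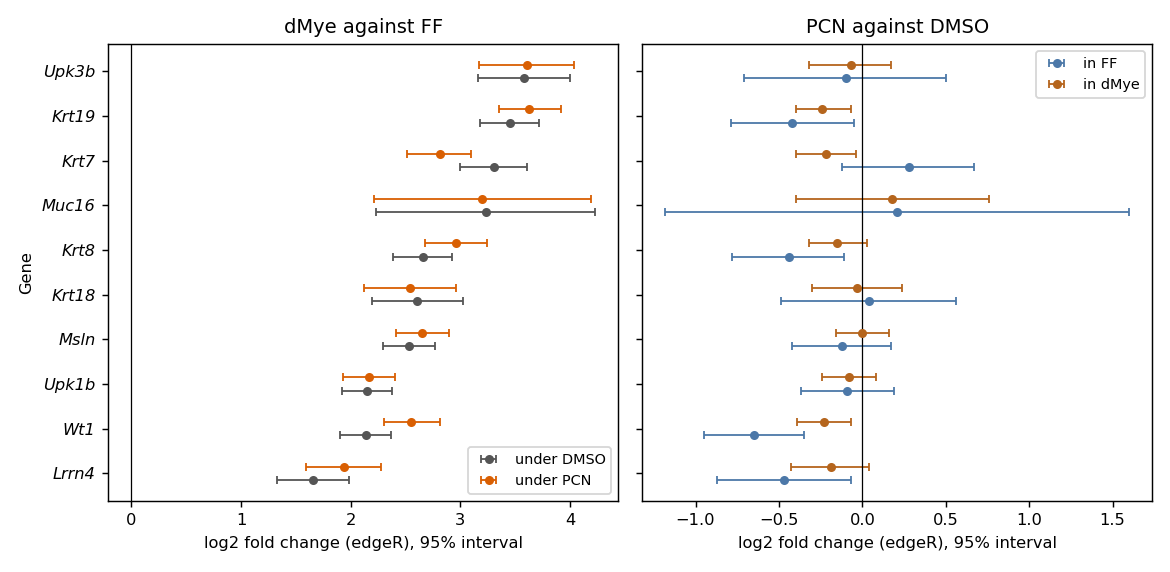
Log2 fold changes of the 10 marker genes from the edgeR fit, with 95% intervals. The left panel compares dMye with FF under DMSO and under PCN, and all intervals lie above 0. The right panel compares PCN with DMSO in FF and in dMye, and most intervals include 0.

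Levels between genes were compared per kilobase of annotated exon (all exons of a gene merged, GENCODE M21). In dMye_DMSO the order was Krt8 (14 ± 1.15 CPM per kilobase, SD, n = 6), Krt19 (13.9 ± 1.32), Upk1b (11.2 ± 0.699), Krt18 (8.88 ± 0.802), Msln (8.57 ± 0.662), Lrrn4 (3.23 ± 0.515), Upk3b (2.86 ± 0.366), Wt1 (2.44 ± 0.233), Krt7 (1.68 ± 0.087) and Muc16 (0.0604 ± 0.0148). Krt8 and Krt19 differed by less than their spread, as did Krt18 and Msln, and Lrrn4 and Upk3b. In FF_DMSO the order began with Upk1b (2.47 ± 0.183, n = 3) and Krt8 (2.18 ± 0.269). Msln (1.46 ± 0.191), Krt18 (1.43 ± 0.378) and Krt19 (1.25 ± 0.267) came next and differed by less than their spread. Merged exons of a gene with long alternative transcripts, such as Krt7 with 7049 bases, lower its level per kilobase.

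The 10 genes did not differ by the same factor. For each of the 45 gene pairs the log2 ratio of counts within a library, which no scaling of libraries can change, was compared between genotypes with a two-sided exact permutation test and adjusted over the 45 pairs. This comparison was chosen after the fold changes had been seen. With 3 against 6 libraries there are 84 assignments, and the smallest p they can give is 0.0119. Under DMSO 28 of 45 ratios passed and under PCN 25, of which 20 passed under both in the same direction. With any 1 FF library left out none passed, and the smallest p that 2 against 6 libraries can give is 0.0357.

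Counting the passing ratios, Upk3b and Krt19 were each higher in dMye relative to 6 other genes under DMSO and 7 under PCN, and lower relative to none. Krt7 had the same count under DMSO, but under PCN it was higher relative to 2 and lower relative to 2. Lrrn4 and Upk1b were each lower relative to 7 genes under DMSO, and to 8 and 6 under PCN, and higher relative to none. Wt1 was lower relative to 5 under DMSO, but under PCN it was higher relative to 2 and lower relative to 3. Upk3b relative to Lrrn4 was 3.97-fold higher in dMye under DMSO (exact permutation p = 0.0119, adjusted p = 0.0214) and 3.11-fold higher under PCN (exact permutation p = 0.0119, adjusted p = 0.0268). Its log2 ratio was -3.33, -1.91 and -1.44 in the FF_DMSO libraries and -0.49 to 0.12 in dMye_DMSO, without overlap. Krt19 relative to Wt1 was 2.48-fold higher under DMSO and 2.11-fold higher under PCN, each with an exact permutation p of 0.0119. By contrast, Krt8 relative to its partner Krt18 differed 1.02-fold under DMSO (exact permutation p = 0.821) and 1.24-fold under PCN (exact permutation p = 0.107), and neither passed. This was not particular to the partners. Krt18 relative to Msln differed 1.07-fold under DMSO and 1.0-fold under PCN, and did not pass either.

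**Figure D3:**
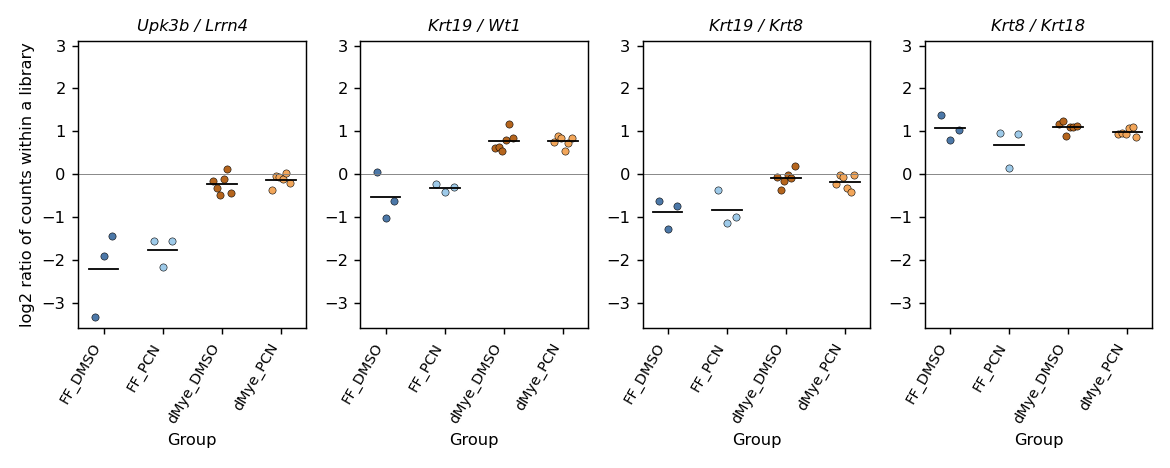
Log2 ratio of counts of 4 gene pairs within each library, by group. Points are libraries and short lines are group means. Upk3b to Lrrn4 separates the genotypes without overlap, and Krt8 to Krt18 overlaps between them.

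Between PCN and DMSO, 1 of the 10 genes was called in FF cultures and none in dMye cultures, close to the shares over all tested genes. In FF 1 of the 10 fell and none rose, where 13.8% of all tested genes changed, 6.82% rose and 6.98% fell. That gene was Wt1, at 2.79, 3.92 and 3.38 CPM under DMSO and at 2.22, 2.22 and 1.9 CPM under PCN, without overlap, as for 18.2% of tested genes in this direction (log2 -0.65, SE 0.14, adjusted p = 0.0035). The call was lost when only the FF libraries entered the fit (adjusted p = 0.063). Krt19 did not overlap either, but did not pass the test (log2 -0.42, SE 0.18, adjusted p = 0.13). Krt8 (log2 -0.44, adjusted p = 0.074) and Lrrn4 (log2 -0.47, adjusted p = 0.11) also missed the threshold. Without FF_DMSO 3 both joined Wt1, giving 3 of 10, and without FF_PCN 2 or dMye_DMSO 5 the count was 2.

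In dMye cultures 0 of the 10 passed by edgeR, where 2.08% of all tested genes changed, and DESeq2 also called 0. At an unadjusted p under 0.05 there were 3, Krt7 (log2 -0.22), Krt19 (log2 -0.24) and Wt1 (log2 -0.23). Such a p was found for 2028 of all 13409 tested genes. Log2 differences ran from -0.24 to 0.18 over the 10 genes. For Msln the difference was 0 with a 95% interval of -0.16 to 0.16, and for Muc16 it was 0.18 with an interval of -0.4 to 0.76. The difference between the PCN effects of the genotypes passed for 0 of the 10 by edgeR and by DESeq2, against 1.42% of all tested genes. Its unadjusted p was under 0.05 for 2 of them, Krt7 (log2 -0.5, adjusted p = 0.3) and Wt1 (log2 0.42, adjusted p = 0.25). Over all tested genes this held for 1724 of 13409. The fall of Wt1 in FF is therefore not shown to differ from its value in dMye.

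A list of 11 further mesothelial genes was read beside the 10. Calb2, which encodes calretinin, was at 0 in all libraries, and the other 10 genes were tested. All 10 were higher in dMye under DMSO and under PCN, with a median log2 fold change of 2.09 and 1.95. Cldn15 is among them, and it passed the filter on low counts only through the dMye libraries. Cdh2 differed least under DMSO (log2 0.88), where its libraries overlapped between genotypes. Aldh1a2, Efemp1, Tm4sf1 and Cdh2 are not limited to mesothelium and are also expressed in peritoneal macrophages, fibroblasts, endothelium or stroma. Aldh1a2, an enzyme that makes retinoic acid, stood under DMSO at 6.43 ± 1.53 CPM in FF and 27.5 ± 1.96 CPM in dMye (log2 2.07, SE 0.11, adjusted p = 2.4e-12). Tm4sf1, a small membrane protein, was at 1.62 ± 0.48 and 11.8 ± 0.539 CPM (log2 2.83, adjusted p = 1.5e-11). Gpm6a, a membrane glycoprotein, was higher by 2.22 on the log2 scale. Neither PCN contrast called any of the 10 by edgeR, with 3 at an unadjusted p under 0.05 in FF and 1 in dMye. Over all 13409 tested genes 3549 had such a p in FF and 2028 in dMye.

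Markers of other cell types moved with the genotype too, and their part in the result was not tested. All 8 tested fibroblast genes of 10 were higher in dMye under both agents. Of these, Lum passed the filter on low counts only through the dMye libraries. The summed level of the 10 fibroblast genes was 173 to 176 CPM in FF_DMSO and 546 to 729 CPM in dMye_DMSO. Under DMSO Col3a1, a fibrillar collagen, stood at 59.7 ± 3.25 CPM in FF and 239 ± 22.5 CPM in dMye (log2 1.98, SE 0.07, adjusted p = 4e-15). The ratio of the summed medians under DMSO was 3.75 for fibroblast genes and 2.21 for smooth muscle and pericyte genes. The latter sum was mostly Acta2 (6.61 CPM in FF_DMSO, 13.3 in dMye_DMSO), Des (2.07 and 6.15) and Tagln (2.12 and 4.74). Of 5 tested genes of that list 3 were higher under each agent. Myh11, Rgs5, Cnn1, Notch3 and Cspg4 were low, with means of at most 0.211 CPM in FF_DMSO and 0.502 CPM in dMye_DMSO. The endothelial list was nearly all Vwf (150 CPM in FF_DMSO, 134 in dMye_DMSO, not called) and Kdr (26.6 and 34.1 CPM), and Kdr was higher in dMye under both agents (adjusted p = 0.0079 and 0.0044). The defining endothelial gene Cdh5 was at 0.321 and 0.279 CPM, and Cldn5 was at 0 throughout. The defining epithelial genes Epcam and Cdh1 were near the floor, at 0.115 and 0.208 CPM in FF_DMSO and 0.348 ± 0.215 and 0.212 ± 0.124 CPM in dMye_DMSO. Epcam was not called and Cdh1 was not tested. The ratio of the epithelial list's summed medians was 7.64 under DMSO and 5.1 under PCN, and Krt14 made up most of that list's summed level. B cell and T cell lists went the other way, with ratios of 0.334 and 0.488, and 5 of 6 and 4 of 6 genes were lower under DMSO, against 2 of 6 each under PCN. The neutrophil ratio of 0.438 came mostly from Mmp8 (30.1 CPM in FF_DMSO, 12 in dMye_DMSO). Of 3 tested neutrophil genes 2 were lower in dMye under DMSO, Mmp8 and S100a9 (0.828 and 0.342 CPM), and 1 under PCN. S100a8 stood at 2.07 and 2.47 CPM and was not called, and Ly6g was at 0 throughout. Of 10 macrophage genes 3 were higher and 2 lower under DMSO, and 7 higher and 1 lower under PCN, with median log2 fold changes of 0.07 and 0.23. The ratio of their summed medians was 0.821 under DMSO and 0.967 under PCN, and Lyz2, Ctss and Cd68 made up most of these sums. Adgre1 was at 125 ± 2.11 CPM in FF_DMSO and 133 ± 4.69 in dMye_DMSO, and Csf1r at 131 ± 2.46 and 133 ± 5.82. Lyz2, the lysozyme gene of myeloid cells, was at 7140 ± 324 CPM in FF_DMSO and 4060 ± 646 CPM in dMye_DMSO, and was lower in dMye (log2 -0.84, SE 0.11, adjusted p = 1.5e-05).

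**Figure D4:**
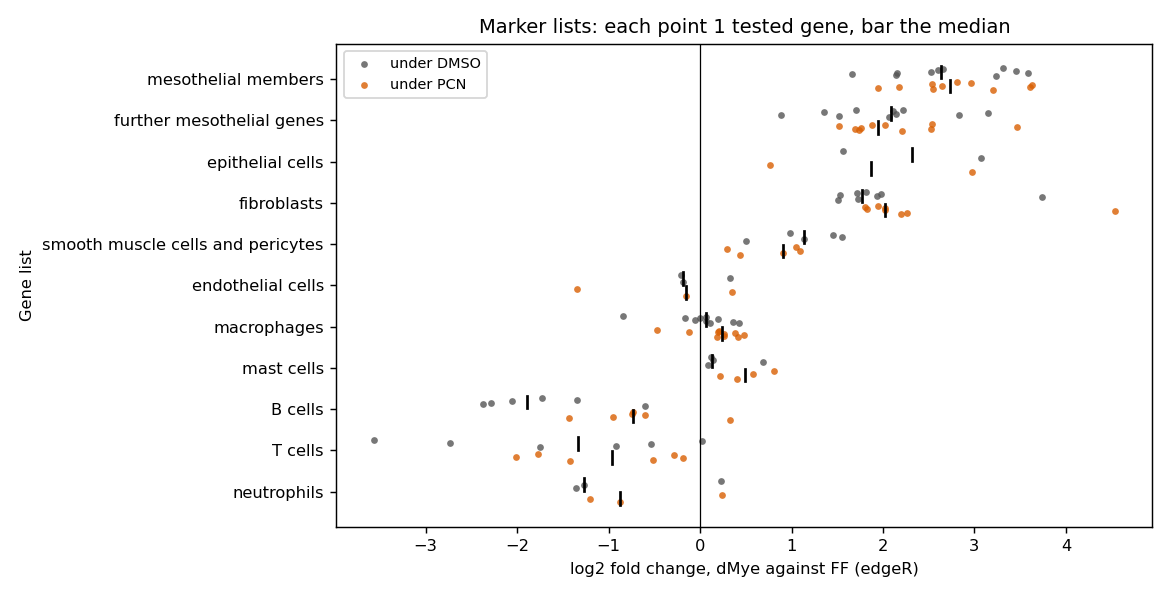
Log2 fold change of dMye against FF for each tested gene of the marker lists, under DMSO and under PCN. Each point is a gene and each bar the median of its list. The mesothelial lists and the fibroblast list lie above 0 throughout, with medians of 2.63, 2.09 and 1.77 under DMSO. So do the epithelial list with 2 tested genes, the smooth muscle and pericyte list with 5 and the mast cell list with 4. Their medians under DMSO are 2.32, 1.14 and 0.13.

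Over the 18 libraries, each taken as its deviation from the group mean, the correlation of a gene with the sum of the other 9 ran from -0.16 for Muc16 to 0.64 for Krt8. The points share library depth, and no test was made. Among the 5 tested genes outside the set whose deviations were most like those of the summed level were Stk26 (Pearson r = 0.85), Nox1 (0.79), Atg4a (0.76) and Dnajc18 (0.76). Without the 2 libraries farthest from the median, dMye_PCN 6 and FF_DMSO 3, r was 0.82, 0.8, 0.64 and 0.63. Nox1 was low, with group means of 0.427 to 0.5 CPM. All these genes were picked as the highest among all tested genes, so high values arise from the choice itself. Stk26 was also higher in dMye under DMSO, by 1.26 on the log2 scale, while Nox1, Atg4a and Dnajc18 were not called.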

How the data were processed

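The authors deposited 1 table of expected counts, estimates of reads per gene that can be fractional. The genome build was mm10, per the submitters' processing notes, while aligner, quantifier, annotation and strand setting were not found in the labels or headers. Expected counts were rounded. Genes were filtered with filterByExpr and tested in 1 edgeR 4.0.16 quasi-likelihood fit (R 4.3.3, robust, TMM scaling, 4 groups, no covariate), with Benjamini-Hochberg adjustment over all genes. The SE is the size of the log2 fold change over the square root of its F statistic. CPM used unscaled library totals. The floor of 3 counts covers counting error only, and the 95% intervals come from the fit. Log ratios used a pseudocount of 0.5. Positions and exon lengths came from GENCODE M21 (GRCm38), and promoters from RefSeq. The 10 genes were all named. Of the other lists some genes were named by smallest p, some as reference genes, and others to show what made up or departed from a list. Being named there is therefore no rank by p. The members and lists were chosen with earlier results of these data known. The scripts were tested on simulated data. Alternatives covered scaling, filters, DESeq2 1.42.0, limma-voom (limma 3.58.1), fits of only the groups compared and leaving out libraries. The permutation tests went through every assignment of libraries, and scipy 1.17.1 gave their Benjamini-Hochberg adjustment. A background feature that both genotypes share, and 1 gene that the rule for most alike genes selects, are not reported here.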

Additional observations from a re-analysis of the deposited data

How the results depend on the processing

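All 10 genes stayed higher in dMye under DMSO and PCN, with none lower, under every alternative run for these comparisons, and the ratio of summed medians ran from 5.94 to 6.18 under DMSO and from 6.44 to 7.08 under PCN. The count of the 10 genes that fell under PCN in FF was 1, and it became 2 with library totals only, 2 with DESeq2, 0 with only the FF groups in the fit, and 2 without dMye_DMSO 5 and dMye_DMSO 6, an alternative chosen after seeing the data. Leaving out 1 library at a time gave 1 to 3. The cause of these shifts was not tested. Uncalled PCN values changed sign. In FF, Krt18 went from 0.04 to 0 with upper-quartile scaling and -0.06 with limma-voom. In dMye, Msln went from 0 to -0.02 with upper-quartile scaling. The difference between the PCN effects went from -0.06 to 0.04 for Krt18 and from 0.03 to -0.04 for Upk3b with limma-voom. Leaving out 1 library at a time, log2 values in FF ran from -0.5 to 0.28 for Krt18, from -0.66 to 0.93 for Muc16 and from -0.39 to 0.07 for Upk3b. In dMye they ran from -0.03 to 0.04 for Msln, from -0.07 to 0.01 for Krt18 and from -0.04 to 0.32 for Muc16. For the difference between the effects they ran from -0.31 to 0.47 for Krt18, from -0.75 to 0.84 for Muc16, from -0.14 to 0.32 for Upk3b and from -0.06 to 0.1 for Upk1b. Over all tested genes, calls for PCN in dMye went from 279 to 575 with DESeq2 and 144 with only those groups, and calls for the difference between the effects from 190 to 411 with DESeq2 and to 42 without FF_DMSO 1. Calls for PCN in FF went from 1851 to 1202 without FF_DMSO 1. The share of called genes that were higher in dMye under DMSO went from 64% to 76% with upper-quartile scaling and 76.2% with library totals only, and under PCN from 58.8% to 74.8% and 76.3%. For PCN it went from 49.4% to 38.2% in FF and from 45.2% to 31.2% in dMye with upper-quartile scaling. No scaling moved the median of all genes by over 0.1 on the log2 scale. The number of gene pairs whose ratio passed was 26 under DMSO and 24 under PCN with a pseudocount of 1, and 24 to 26 and 20 to 23 without 1 dMye library. No paired analysis was possible because the labels give no replicate numbers. Library numbers such as that of dMye_DMSO 5 were assigned here in the order of the samples within a group. Muc16 in FF is limited by depth.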
